A study of Mus musculus with 192 samples.

Results

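The nuclear genes for the enzymes of oxidative phosphorylation were followed across a grid of small pieces of the mouse brain. They were taken by gene symbol: names that start with Nduf (complex I and its assembly factors), Sdha to Sdhd (complex II), names that start with Uqcr together with Cyc1 (complex III), Cox4 to Cox8 (complex IV) and names that start with Atp5 (complex V). In all 69 symbols were found, and 68 of them passed a filter that asked for values on 80% or more of each dataset's arrays, out of 15608 genes and unnamed array elements that passed the same filter and are called genes below. Ndufa9, the remaining symbol, was measured on 70.6% of the arrays of its poorest dataset and was left out. The 68 genes were 24 subunits of complex I, 5 complex I assembly factors (Ndufaf1, Ndufaf3, Ndufaf4, Ndufaf6 and Ndufaf7), 4 of complex II, 8 of complex III, 10 of complex IV, 16 of complex V and the pseudogene Ndufs5-ps, whose signal cannot be told apart from that of a near-identical transcript.

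The tissue came from male C57BL/6 mice at postnatal day 56, and the brain was divided into voxels named by a row, A to G, and a column, 1 to 11. Each two-colour array set RNA of a voxel position against whole brain RNA, and the labels call the voxel RNA pooled without giving the number of animals. The tissue was harvested 3 times from separate brains, giving datasets 1, 2 and 3 with 59, 68 and 65 arrays, which are the replicates. They covered 68 positions, 56 of them in all 3 datasets and 12 in 2. The labels name no anatomical direction for rows or columns, and every animal was an untreated male of that strain and age, so the positions are the only contrast.

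In oxidative phosphorylation, complexes I and II pass electrons to ubiquinone, complex III passes them on to cytochrome c, and complex IV hands them to oxygen. Complexes I, III and IV pump protons across the inner mitochondrial membrane, and complex V, the ATP synthase, uses the returning protons to make ATP. Neurons depend heavily on this route, and the enzyme activity of complex IV is a long-used stain for the activity of brain areas. Complex II is made from nuclear genes alone, while the other complexes also hold subunits made from mitochondrial DNA. None of the 15 listed mitochondrial genes, which include the ribosomal RNAs mt-Rnr1 and mt-Rnr2, was measured here.

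The values are log2 ratios that had been centred on each gene's median over all arrays, so a value describes where a gene was high or low and not how abundant it was. A positive value most likely means more RNA in the voxel. The labels do not state the sign, but Ttr, a choroid plexus transcript, reached 4.09 ± 0.60 (SD, n = 3) at the single position E7. The lowest correlation between 2 arrays of a dataset was -0.573, and 0.676% of same-dataset pairs lay under -0.3. Tissue markers set the positions apart: all 5 measured cortical genes and all 4 measured striatal genes differed among positions. In pieces of tissue, fewer cells of a type and less RNA per cell cannot be told apart. The spread of values within an array (its median absolute deviation) had a median of 0.400 and was widest for G3 and F4 of dataset 2 and G9 of dataset 3, at 1.08, 0.932 and 1.06. Where a single position is described below, each gene's overall level in each dataset has been removed first.

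Differences among positions were tested for every gene with a moderated F test in limma, with the dataset as a block and Benjamini-Hochberg adjustment over all genes. Of the 68 oxidative phosphorylation genes 9 passed, or 13.2%, against 4.92% of all genes (768 of 15608). They were Ndufv2, Ndufb5, Ndufa13 and Ndufs1 of complex I, Uqcrh of complex III, Cox4i1 and Cox6b1 of complex IV, and Atp5b and Atp5j2 of complex V. None of the 4 complex II genes passed, and none of the 5 assembly factors. At an unadjusted p under 0.05 the count was 31 of 68, against 13.3% of all genes, with 12 of 24 in complex I, 1 of 4 in complex II, 4 of 8 in complex III, 8 of 10 in complex IV and 5 of 16 in complex V. The span between the highest and the lowest position had a median of 1.33 log2 units over the 68 genes and of 1.56 over all genes. Such a span also holds the noise of the 2 or 3 arrays at a position, so it does not measure the size of position differences. The median F was 1.32 over the 68 genes and 1.04 over all genes.

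In complex I, Ndufv2 encodes an iron-sulfur subunit of the arm that oxidises NADH. Over all arrays its values ran from -1.52 through a median of -0.01 to 1.44. It was highest at C8, with 0.28, 1.44 and 0.48 in the 3 datasets, and lowest at D11, with -1.52, -0.66 and -0.10. These positions were picked as the extremes of 68 by the same values, so a lack of overlap between them is no support. A single dataset set most of the distance at each (F = 2.06, adjusted p = 0.00802). Ndufb5 and Ndufa13, membrane arm subunits, were both highest at B5 and lowest at E5. Ndufb5 had 0.51 and 0.55 at B5 in datasets 2 and 3, against -0.51, -0.73 and -0.66 at E5 in datasets 1, 2 and 3 (adjusted p = 0.0131). The datasets lay close together at both positions. Ndufa13 had 0.46 and 1.20 at B5, against -0.59, -0.78 and -0.28 at E5 (adjusted p = 0.0266).

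Ndufs1, the largest iron-sulfur subunit of complex I, was high and low at other positions than most of these genes. It was lowest at C1, with -1.06, -2.53 and -0.72, and highest at E5, with 0.32, 2.45 and 0.04 (F = 1.81, adjusted p = 0.0444). E5 was the lowest position for 5 of the other called genes (Uqcrh, Ndufb5, Ndufa13, Cox6b1 and Atp5j2), and the high mean of Ndufs1 there came from dataset 2. Its position means correlated with the mean of the other oxidative phosphorylation genes at r = 0.36 over 68 positions, against 0.79 for Ndufv2 and 0.77 for Ndufb5.

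Complex II, succinate dehydrogenase, is also an enzyme of the citric acid cycle. Sdha, its flavoprotein subunit, came closest to the threshold (F = 1.75, adjusted p = 0.0679). It was highest at C4, with 0.25, 1.02 and 0.71, and lowest at C1, with -0.39, -0.67 and -0.68, positions picked by these same values. Sdhb, the iron-sulfur subunit, had an adjusted p of 0.489. Its highest mean, 1.72 ± 2.58 at B6 (SD, n = 3), rested on 4.69 in dataset 1, against 0.04 and 0.42 in the other 2 datasets.

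In complex III, Uqcrh, the hinge protein, had values from -1.74 through a median of 0.01 to 1.25. It was highest at C4 (0.49, 1.12 and 0.92) and at C8 (0.53, 1.25 and 0.68), and lowest at E5 (-1.72, -0.78 and -0.34). All 6 values at C4 and C8 lay above 0 and all 3 at E5 below it, at positions picked by these values (F = 2.06, adjusted p = 0.00812). Uqcrb, the ubiquinone-binding protein, was also highest at C8, with 0.39, 1.14 and 0.65, but did not pass (adjusted p = 0.0945). Among all 68 genes its map was the one most like the mean of the others (r = 0.88 over 68 positions). Cyc1, cytochrome c1, was at the other end of complex III with r = 0.07.

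Cox4i1, a regulatory subunit of complex IV and the gene with the smallest p of all 68, had values from -0.84 through 0.00 to 1.75. It was highest at C8, with 0.40, 1.75 and 0.47, followed by C4 with 0.54, 1.21 and 0.36, and lowest at A10, with -0.82 and -0.37, and E5, with -0.54, -0.84 and -0.36 (F = 2.11, adjusted p = 0.00569). C8 and C4 lie in the same row on either side of column 6. Cox6b1, a small subunit facing the intermembrane space, had 0.18, 1.62 and 0.60 at C8, against -0.24, -0.89 and -0.51 at E5 (adjusted p = 0.0269). In complex V, Atp5b, the catalytic beta subunit, had 0.47, 1.56 and 0.27 at C8 and 0.85, 1.07 and 0.36 at C4. Its lowest mean was at A10, where the values were -1.36 and -0.03 (F = 1.98, adjusted p = 0.0142). Atp5j2, a small membrane subunit of the Fo part, had 0.55, 1.79 and 0.54 at C8, against -0.63, -0.99 and -0.42 at E5 (adjusted p = 0.0401).

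**Figure D1:**
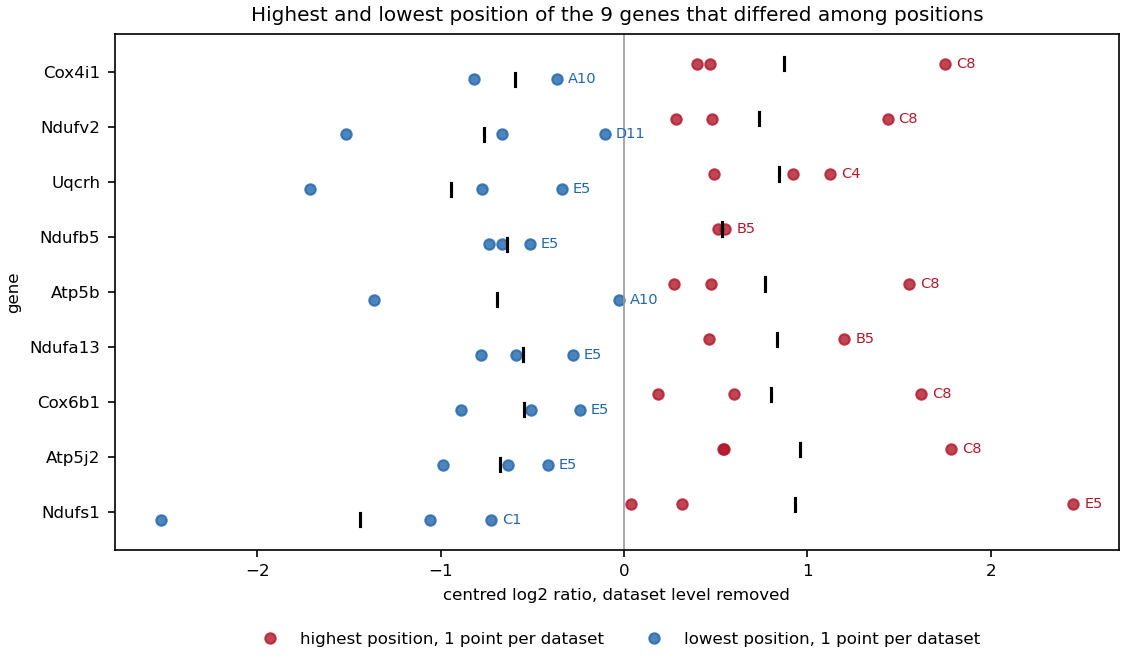
Values of the 9 genes that differed among positions, at the position of the highest mean (red) and of the lowest mean (blue), on an axis of centred log2 ratios with each dataset's level removed. Each point is 1 dataset and each black bar a mean; for Cox4i1 the points at C8 are 0.40, 1.75 and 0.47 and those at A10 are -0.82 and -0.37.

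These calls leaned on all of the datasets. No gene of the 68 passed without dataset 1 or without dataset 2, and 3 passed without dataset 3 (Atp5b, Cox7a2l and Ndufa8). Over all genes the calls then numbered 324, 213 and 546. At C8 the value of dataset 2 was the highest of the 3 in all 5 of the called genes that peaked there, and this array had the highest mean over the 68 genes. Without that array 6 of the 9 still passed, and Cox6b1, Atp5j2 and Ndufs1 had adjusted p values of 0.0629, 0.0910 and 0.0520. The order of 6 arrays of dataset 2, in columns 1 to 3 and 5 to 7 of row D, is in doubt from an earlier look at these data. Without them 10 of the 68 passed: Atp5j2 did not (adjusted p = 0.0778), and Sdha (0.0339) and Uqcrb (0.0461) did.

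The upstream sequence was looked at in the genes whose maps the results turn on. A promoter entry was at hand for 55 of the 68 genes, and the 250 bases before the start were searched on both strands for 5 motifs. These were the NRF1 motif (GCGC, then any base, then TGCGC), the ETS motif CCGGAAG, the GC box GGGCGG, the CCAAT box CCAAT and the TATA box TATAAA. NRF1 and the ETS factor GABP are textbook regulators of respiratory genes. The NRF1 letters stood in 10 of 55 genes (18.2%), against 9.55% of the 7007 genes of the arrays with an entry, and the ETS letters in 13 (23.6%) against 15.9%. The GC box stood in 40.0% against 62.5%, the CCAAT box in 47.3% against 40.3% and the TATA box in 9.09% against 8.66%. Matches of different motifs overlapped once among 114 matches. A match describes letters and not a bound site. The promoters of 4 of the called genes and of Sdha, the leading complex II gene, are printed 5′ to 3′ on the strand of the gene from RefSeq, build GRCm38.p6, with every match of a motif in capitals. Ndufv2 (chr17:66101560-66101809, minus strand), Sdha (chr13:74350241-74350490, minus strand), Uqcrh (chr4:116075071-116075320, minus strand), Cox6b1 (chr7:30626115-30626364, minus strand) and Atp5b (chr10:128083057-128083306, plus strand) read as follows.
Ndufv2: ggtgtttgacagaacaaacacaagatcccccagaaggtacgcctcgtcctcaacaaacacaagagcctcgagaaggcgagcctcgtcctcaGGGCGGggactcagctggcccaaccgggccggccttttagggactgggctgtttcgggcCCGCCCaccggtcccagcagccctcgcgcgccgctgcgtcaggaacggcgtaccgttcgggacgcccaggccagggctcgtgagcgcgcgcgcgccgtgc
Sdha: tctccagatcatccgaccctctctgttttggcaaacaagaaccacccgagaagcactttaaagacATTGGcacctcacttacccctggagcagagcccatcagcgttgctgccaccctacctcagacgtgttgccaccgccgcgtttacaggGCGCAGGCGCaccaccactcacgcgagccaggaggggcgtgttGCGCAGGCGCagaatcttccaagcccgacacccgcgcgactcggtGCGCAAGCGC
Uqcrh: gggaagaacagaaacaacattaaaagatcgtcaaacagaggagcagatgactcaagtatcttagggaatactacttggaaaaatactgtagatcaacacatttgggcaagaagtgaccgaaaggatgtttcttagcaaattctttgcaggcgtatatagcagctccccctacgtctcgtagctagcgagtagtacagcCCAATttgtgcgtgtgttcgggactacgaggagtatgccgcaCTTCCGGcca
Cox6b1: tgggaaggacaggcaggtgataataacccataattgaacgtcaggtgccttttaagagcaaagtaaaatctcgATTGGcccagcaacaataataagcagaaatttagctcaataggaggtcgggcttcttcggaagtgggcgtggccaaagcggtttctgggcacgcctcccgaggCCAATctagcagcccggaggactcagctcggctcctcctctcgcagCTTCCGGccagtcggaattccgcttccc
Atp5b: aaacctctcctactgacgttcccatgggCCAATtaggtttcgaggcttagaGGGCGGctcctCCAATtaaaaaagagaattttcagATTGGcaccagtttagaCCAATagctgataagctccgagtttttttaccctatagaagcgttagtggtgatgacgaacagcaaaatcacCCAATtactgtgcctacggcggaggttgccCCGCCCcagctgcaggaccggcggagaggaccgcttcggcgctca
Uqcrh and Cox6b1 held the ETS letters and a CCAAT box, Ndufv2 a GC box, and Atp5b a GC box and a CCAAT box. Sdha held the NRF1 letters and a CCAAT box. Of the other called genes with an entry, Ndufb5, Ndufa13 and Atp5j2 held neither the NRF1 nor the ETS letters.

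Averaged by complex, the maps were alike in their high and low ends. The mean of the 68 genes was highest at C8 (0.26, 0.73 and 0.33 in the 3 datasets), C4 (0.23, 0.43 and 0.30), B5 (0.20 and 0.36) and B4 (0.36 and 0.15). It was lowest at A10 (-0.48 and -0.36), E5 (-0.27, -0.55 and -0.30) and B2 (-0.35 and -0.25). These positions were picked by the same means, so a lack of overlap between their values is no support for a difference. C8 ranked first for complexes I, III, IV and V, at 0.43 ± 0.23, 0.47 ± 0.18, 0.62 ± 0.51 and 0.44 ± 0.26 (SD, n = 3 each). Complex II ranked C4 first at 0.56 ± 0.25 and C8 next at 0.46 ± 0.42. Its low value at G9, -0.74 ± 1.41, came from -2.35 in dataset 3, one of the arrays of widest spread.

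**Figure D2:**
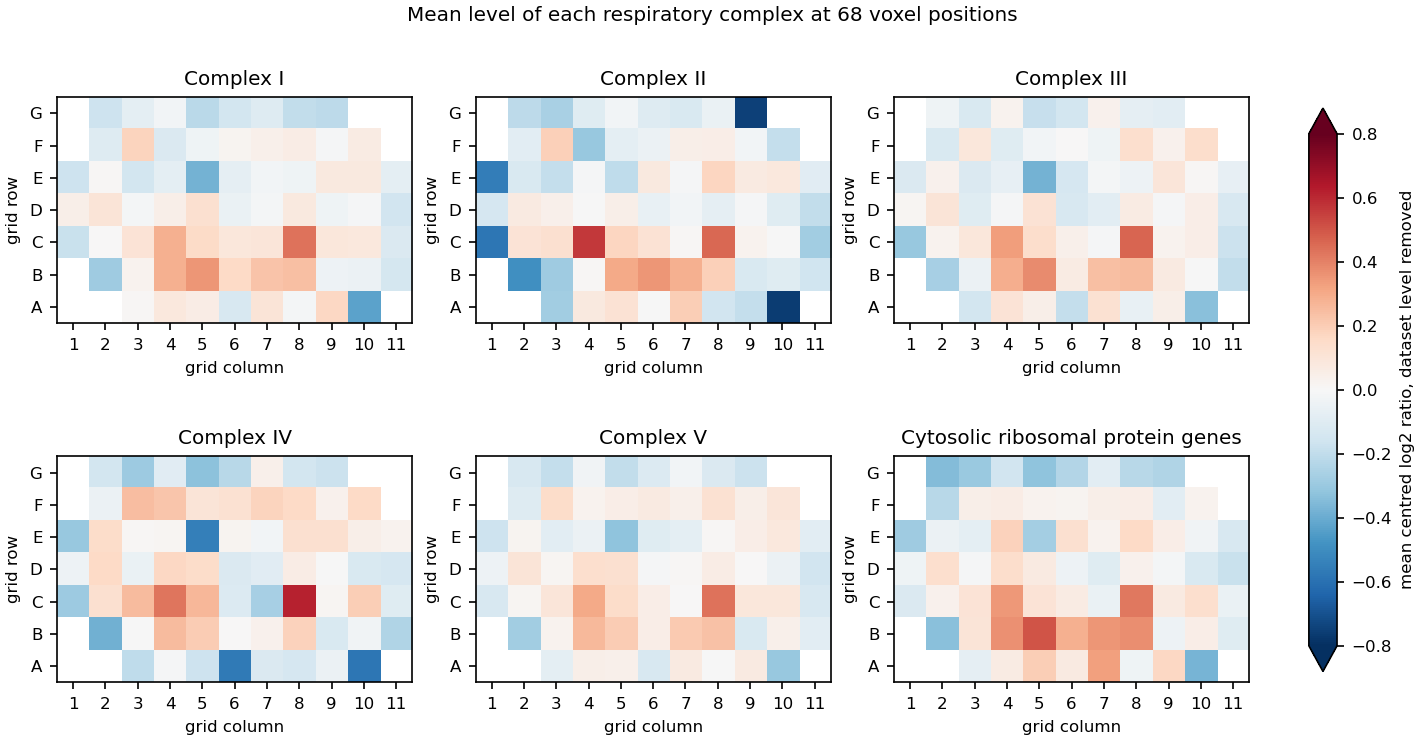
Mean centred log2 ratio of the genes of complexes I to V and of the 74 cytosolic ribosomal protein genes at each of 68 positions, with grid columns 1 to 11 across and rows A to G upward. Red is high and blue low, blank corner cells hold no voxel, and colours at the ends of the scale include values beyond it; C8 and C4 are red and A10 and B2 blue in all 6 panels.

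Complexes I, III and V followed each other closely across positions, and complex II followed the others least. Over the 68 positions the means of complexes I and V correlated at r = 0.94, I and III at 0.92, III and V at 0.90, I and IV at 0.77 and I and II at 0.76. Complex II correlated with III, IV and V at 0.72, 0.63 and 0.74. In dataset 1 alone these values were 0.31, 0.35 and 0.46, and in dataset 2 alone 0.83, 0.74 and 0.74. Means of the same arrays share their noise, so these are descriptions. Single genes followed each other less: the median r over 2278 pairs of genes was 0.32, with 0.37 within complex I, 0.43 within complex IV, 0.34 within complex V and 0.31 between complexes. The closest pairs included Atp5b with Cox4i1 (r = 0.84) and Cox6b1 with Ndufv2 (r = 0.82), which are subunits of different complexes. The maps repeated only in part between datasets, where the mean of the 68 genes had rank correlations of 0.34 between datasets 1 and 2, 0.39 between 1 and 3, and 0.20 between 2 and 3.

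Genes for proteins outside mitochondria had a similar map. The mean of the 74 cytosolic ribosomal protein genes, of which 30 differed among positions, correlated with the mean of the 68 genes at r = 0.85. The 5 other named genes with the closest maps were Rpl12 (r = 0.85), Rpl38 (0.84), Rps20 (0.84), Cops9 (0.83) and Rpl23a (0.83), and 4 of them encode ribosomal proteins. Cycs, cytochrome c itself, came next at 0.82. The part of RNA quality or of array signal in this shared map was not tested.

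**Figure D3:**
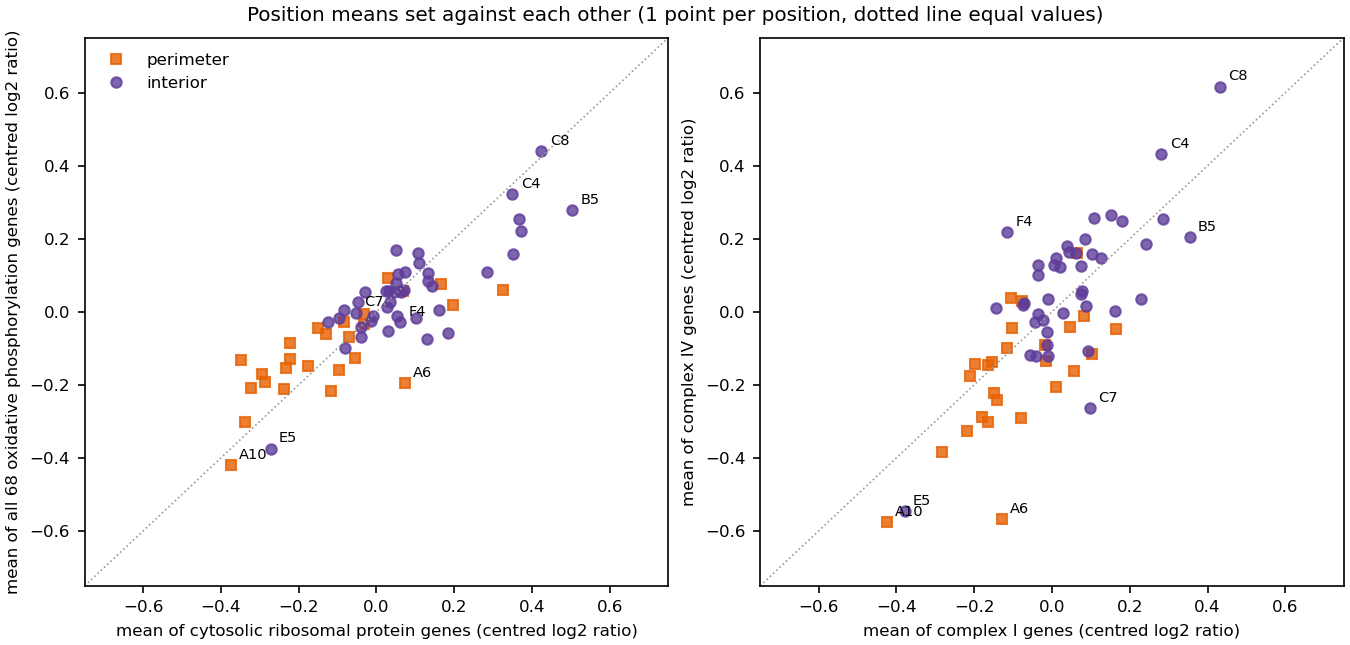
Position means set against each other, with 1 point for each of 68 positions, orange squares for the perimeter and purple circles for the interior. On the left the mean of the 68 oxidative phosphorylation genes follows that of the cytosolic ribosomal protein genes (r = 0.85), and on the right complex IV follows complex I (r = 0.77), with A6, C7 and F4 away from the dotted line of equal values.

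Complexes IV and I were apart at some positions. The difference between their means, complex IV minus complex I, was lowest at A6 (-0.77, -0.28 and -0.26), at C7 (-0.49 and -0.23) and at A5, A7 and A3, where the means were -0.22 each. All of these dataset values lay below 0, at positions picked by the same means. It was highest at F4, where the datasets gave -0.02, 0.80 and 0.22, so that the mean of 0.33 ± 0.42 (SD, n = 3) rested on the F4 array of dataset 2, again one of the arrays of widest spread. At E8 the difference was 0.20, 0.16 and 0.12. Cox6a1, Cox8a and Cox6b2 were the complex IV subunits with their lowest mean at A6. Cox6a1 had -0.55, -0.89 and -0.73 there, and Cox8a had -1.12, -0.16 and -0.74. Cox6b2 had -2.88, -0.35 and 0.25. None of them passed the test among positions (adjusted p = 0.198 for Cox6a1, 0.181 for Cox8a and 0.859 for Cox6b2).

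The rim of the grid was compared with its inside. Perimeter positions (26) were set against interior positions (42) within each dataset, and the 3 differences were tested in limma. Oxidative phosphorylation genes lay lower at the perimeter: 63 of 68 had a difference below 0, against 42% of all genes, and 45 of 68 were below 0 in all 3 datasets, against 15.9%. The median difference over the 68 genes was -0.15, with dataset medians of -0.10, -0.15 and -0.23, against 0.03 over all genes. None of the 68 passed after adjustment, against 0.109% of all genes (17, all lower at the perimeter), and 26 of 68 had an unadjusted p under 0.05, against 13.4%. With dataset 2 left out no gene of the 15608 passed, and without dataset 1 there were 58.

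By complex, the median differences between perimeter and interior were -0.14 for complex I (21 of 24 below 0), -0.26 for complex II (4 of 4), -0.14 for complex III (7 of 8), -0.23 for complex IV (10 of 10) and -0.14 for complex V (16 of 16). The complex II medians of datasets 1, 2 and 3 were -0.06, -0.23 and -0.41. G9 of dataset 3, with its complex II mean of -2.35, is a perimeter array. Ndufs1 had means of -0.16, -0.27 and -0.31 at the perimeter, against 0.15, 0.06 and 0.14 in the interior. The zones did not overlap, but genes were named in each zone comparison for a small p there, so this is no support. The difference of Ndufs1, -0.37 ± 0.07 (SD, n = 3), had an adjusted p of 0.183. Uqcrb had -0.04, -0.27 and -0.31 at the perimeter, against 0.25, -0.0048 and 0.11 in the interior, a difference of -0.33 ± 0.09 (adjusted p = 0.212). Cox7b, a small complex IV subunit, differed by -0.38 ± 0.11 (adjusted p = 0.184), with -0.06, -0.0035 and -0.75 at the perimeter against 0.45, 0.32 and -0.43 in the interior. The zones overlapped across datasets, and within each the perimeter was lower. When only elements measured on every array were used, calls were more frequent over all genes (128 of 7049), 55 of the 68 genes remained and 4 passed as lower at the perimeter, namely Ndufs1 (adjusted p = 0.0226), Uqcrb (adjusted p = 0.0414), Cox7a2l and Ndufs4.

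At the perimeter 5 of 68 genes lay above 0, against 58% of all genes. Ndufa2, a small subunit of the NADH arm of complex I, had the largest difference, 0.17 ± 0.09 (adjusted p = 0.407), and was also the subunit whose map ran most against the others, with r = -0.19 to their mean. The other genes above 0 were Cyc1 (0.08 ± 0.20), Ndufaf6, Ndufs3 and Ndufa12. Without dataset 2 the difference of Cyc1 was -0.02.

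Other genes lay lower at the perimeter too. The same sign held for 73 of 74 cytosolic ribosomal protein genes (mean -0.19 ± 0.08), 16 of 17 citric acid cycle genes (-0.12 ± 0.08), 10 of 10 mitochondrial carriers and cytochrome c (-0.14 ± 0.10) and 11 of 13 glycolytic genes (-0.13 ± 0.10; SD, n = 3 datasets each). All 4 measured oligodendrocyte genes were below 0, with a mean of -0.81 ± 0.14, and 3 of them passed the test. Mbp, the defining myelin gene among the 4, did not differ among positions by the F test (adjusted p = 0.861), while Bcas1, Cryab and Qdpr did. All 3 microglial genes were below 0 (-0.26 ± 0.11), while 2 of 3 neuronal genes were above 0 (mean -0.02 ± 0.05). All 4 astrocyte genes were below 0 (-0.12 ± 0.06) and all 5 cortical genes above 0 (0.29 ± 0.28). Of 4 striatal genes 3 were below 0 and 2 passed (mean -0.67 ± 0.13). Also below 0 were 10 of 16 mitochondrial import and structure genes (-0.08 ± 0.08), 2 of 3 thalamic genes (-0.50 ± 0.36) and 2 of 3 ependymal genes (-0.10 ± 0.04). The interneuron gene Cplx1 (-0.11 ± 0.06) and 1 of 2 choroid plexus genes (mean -0.29 ± 0.20) were too. The remaining lists did not lie lower. They included meninges, with 5 of 7 genes above 0 (0.05 ± 0.12), and blood, with 2 of 3 (0.03 ± 0.11). Above 0 were 11 of 16 assembly factors without the Ndufaf genes (0.02 ± 0.02), 6 of 10 regulators of mitochondrial genes (-0.01 ± 0.04) and 2 of 3 endothelial genes (0.20 ± 0.08). Of the 5 Ndufaf genes 4 were below 0 (median -0.04). The median share of missing values per array was 1.27%, 2.46% and 1.82% at the perimeter, against 1.80%, 1.75% and 0.771% in the interior. The part of cell makeup and array quality in the perimeter difference was not tested.

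**Figure D4:**
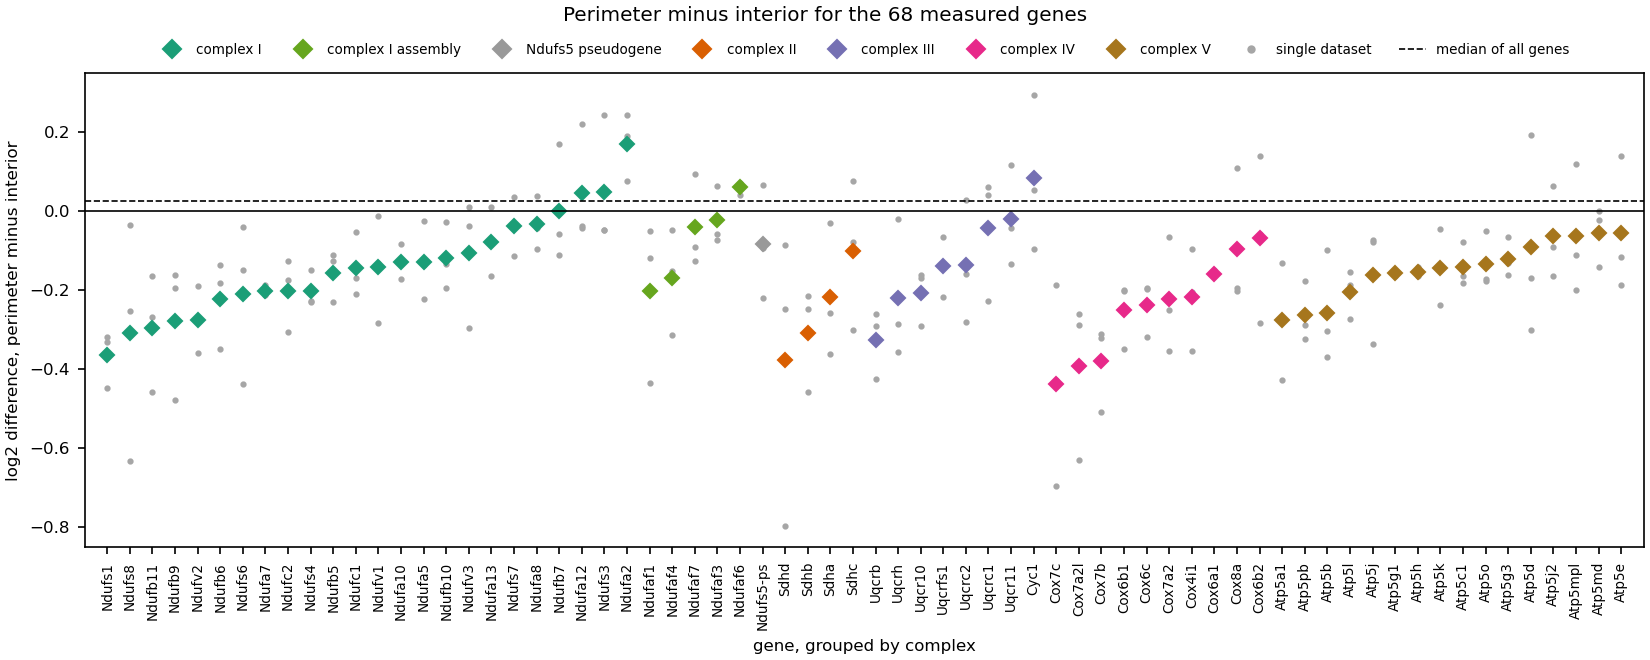
Perimeter minus interior difference (log2 units) of each of the 68 genes, grouped by complex and sorted within it. Diamonds are means over 3 datasets, grey points single datasets and the dashed line the median of all genes at 0.03; all complex II, IV and V diamonds lie below 0.

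Rows A and B (18 positions) were set against rows F and G (17 positions), and the counts differed by complex. In complex I 18 of 24 genes were above 0, with a median difference of 0.13 and dataset means of 0.12, 0.13 and 0.08. In complex IV 1 of 10 was above 0, with a median of -0.05 and dataset means of -0.08, -0.06 and -0.16. The dataset means of the 2 complexes did not overlap, and the difference between the complexes was not tested. Over all genes 45.4% were above 0, and over the 68 genes 43 were, with a median of 0.08 against -0.02 for all genes. None of the 68 passed, against 0.0256% of all genes higher and 0.0833% lower in rows A and B, and 3 had an unadjusted p under 0.05, against 9.03%. In all 3 datasets 20 of 68 were higher in rows A and B, against 13.4% of all genes, and 6 were lower, against 19%. The single complex IV gene above 0 was Cox6b1 (0.20 ± 0.18, adjusted p = 0.681), and across the alternative settings between 1 and 4 complex IV genes and between 15 and 21 complex I genes were above 0.

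Within complex I, 9 of 11 membrane arm subunits were above 0 (median 0.16), 6 of 9 subunits of the NADH-oxidising module (median 0.09) and 3 of 4 of the quinone module (median 0.08). Ndufc2, a membrane arm subunit, had 0.67, 0.13 and -0.17 in rows A and B, against 0.31, -0.25 and -0.59 in rows F and G. Its difference was 0.38 ± 0.03 (SD, n = 3), positive in each dataset, with an adjusted p of 0.399. Its partner Ndufc1 differed by 0.26 ± 0.09 (adjusted p = 0.563), and Ndufs5-ps by 0.30 ± 0.23. In complex V, all 11 subunits of the membrane part and the peripheral stalk were above 0 (median 0.12), against 2 of 5 of the F1 head and central stalk (median -0.14). The F1 medians were 0.09, -0.19 and -0.16 in the 3 datasets, so dataset 1 had the other sign and lay near the 0.13 of the membrane part, whose medians were 0.13, 0.16 and 0.04. Atp5d, the delta subunit of F1, differed by -0.18 ± 0.02 (adjusted p = 0.668) and Atp5b by -0.14 ± 0.18.

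On the low side, Ndufaf1, which assembles complex I, had the smallest p. It had -0.20, 0.13 and -1.07 in rows A and B, against 0.16, 0.39 and -0.42 in rows F and G, a difference of -0.42 ± 0.20 (adjusted p = 0.422). Cox7b differed by -0.54 ± 0.53 (adjusted p = 0.516), of which dataset 3 gave -1.13, and G9 of dataset 3 held its highest value, 4.97. Ndufaf6 differed by -0.20 ± 0.12 (adjusted p = 0.651). Beside these, 68 of 74 ribosomal protein genes were above 0 (mean 0.24 ± 0.08), 0 of 13 glycolytic genes were (mean -0.20 ± 0.24, with dataset 1 at 0.00), and all 5 cortical genes were below 0 (mean -1.53 ± 0.14).

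**Figure D5:**
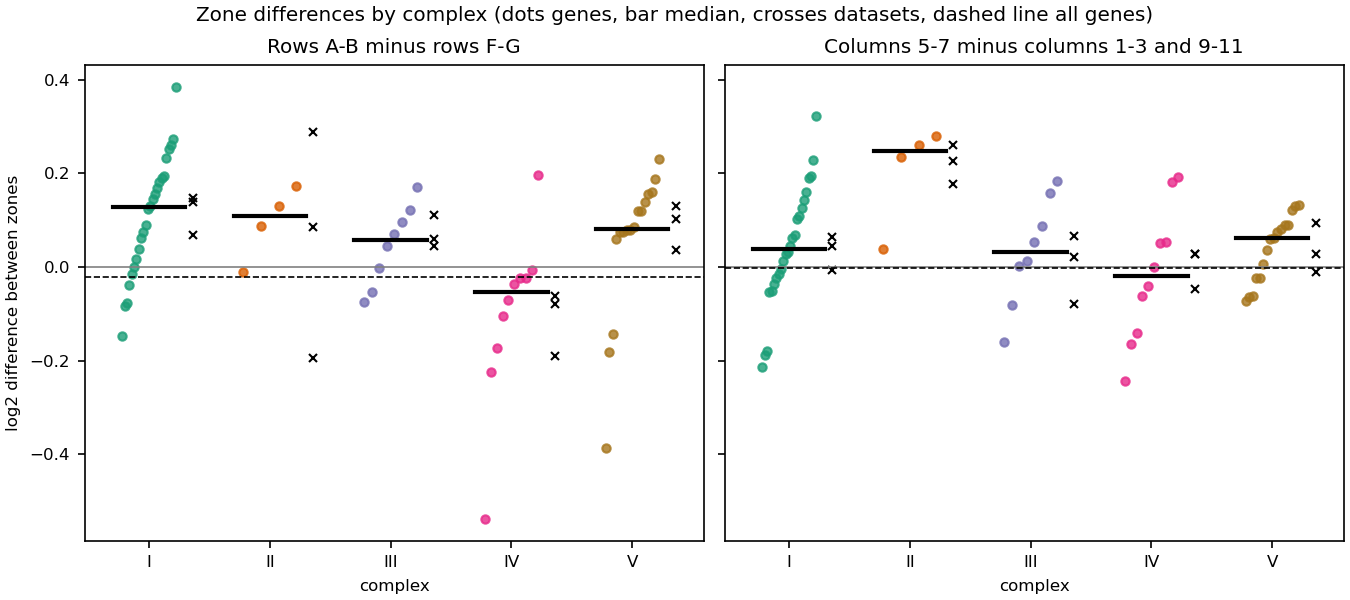
Differences (log2 units) between zones by complex, with 1 dot per gene, a bar at the median of the complex, crosses at the medians of single datasets and a dashed line at the median of all genes. On the left complex I lies mostly above 0 (18 of 24) and complex IV mostly below (9 of 10); on the right all 4 complex II genes are above 0.

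Rows C to E (33 positions) against rows F and G gave a median difference of 0.07 over the 68 genes, and 48 of 68 were above 0, against 49.3% of all genes. The other 20 were below 0, against 50.7%, and 5 of them were lower in all 3 datasets, against 13.7%, while 11 of the 68 were higher in all 3, against 14.5%. None passed, against 0.0256% of all genes higher and 0.0128% lower, and none of the 68 had an unadjusted p under 0.05, against 6.78%. Ndufa13 had -0.01, 0.07 and 0.15 in rows C to E, against -0.16, -0.12 and -0.11 in rows F and G (difference 0.20 ± 0.06, adjusted p = 0.758). Ndufs6 (0.22 ± 0.21) and Atp5l (0.18 ± 0.05) followed on the high side, with adjusted p of 0.790 and 0.798. Cox7b (-0.24 ± 0.34), Ndufaf1 (-0.17 ± 0.21) and Ndufaf6 (-0.17 ± 0.21) were on the low side, with adjusted p from 0.836 to 0.851. Markers moved between these rows too: the striatal genes had a mean of 1.04 ± 0.17 (2 of 4 passed), the cortical genes -0.93 ± 0.03 (2 of 5 passed), the thalamic genes 0.69 ± 0.37 (1 of 3 passed) and the oligodendrocyte genes 0.32 ± 0.09, and 68 of 74 ribosomal protein genes were above 0. Their part in the values of the 68 genes was not tested.

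Columns 5 to 7 (21 positions) were set against the outer columns 1 to 3 and 9 to 11 (33 positions). In complex II 4 of 4 genes were above 0, with a median of 0.25 and dataset medians of 0.23, 0.18 and 0.26, against medians of 0.04, 0.03, -0.02 and 0.06 for complexes I, III, IV and V. None of the 68 genes passed, against 0% of all genes higher and 0% lower, and 10 of 68 (3 of them in complex II) had an unadjusted p under 0.05, against 13.2%. Over the 68 genes 45 were above 0, against 49.6% of all genes, and 23 below, against 50.4%, of which 11 were lower in all 3 datasets, against 20%, while 22 of the 68 were higher in all 3, against 18.2%. Sdha had 0.18, -0.04 and 0.24 in columns 5 to 7, against -0.04, -0.26 and -0.10 in the outer columns, a difference of 0.26 ± 0.07 (SD, n = 3, adjusted p = 0.254). Sdhb differed by 0.28 ± 0.14, Sdhd by 0.23 ± 0.04 (adjusted p = 0.278) and Sdhc by 0.04 ± 0.17. Each of Sdha, Sdhb and Sdhd was higher in columns 5 to 7 in all 3 datasets, against 18.2% of all genes. For Sdhb, columns 5 to 7 of dataset 1 include its single extreme value of 4.69 at B6, whose part in the difference was not tested.

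Other complexes held genes that ran either way between these columns. Ndufs1 had 0.31, 0.11 and 0.04 in columns 5 to 7, against -0.18, -0.20 and -0.13 in the outer columns (0.32 ± 0.16, adjusted p = 0.253). Cox8a, a small complex IV subunit, was on the other side with -0.21, 0.14 and -0.48 in columns 5 to 7, against 0.10, 0.34 and -0.26 in the outer columns (-0.24 ± 0.05, adjusted p = 0.265). Ndufs3, a quinone module subunit, differed by -0.21 ± 0.01 (adjusted p = 0.296) and Ndufa12 by -0.18 ± 0.02 (adjusted p = 0.339). Marker genes moved between these columns as well: all 4 oligodendrocyte genes (mean 0.43 ± 0.08) and all 4 astrocyte genes (0.22 ± 0.07) were above 0, 15 of 17 citric acid cycle genes and 68 of 74 ribosomal protein genes were, and all 4 striatal genes were below 0. Their part in the complex II values was not tested.

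Differences between the sides of the grid were small. Columns 1 to 5 (30 positions) minus columns 7 to 11 (31 positions) gave differences between -0.12 and 0.09 over the 68 genes, with a median of -0.02, and 18 of 68 were above 0, against 47.2% of all genes, and 50 below, against 52.8%. None passed, against 0% of all genes in either direction, and none had an unadjusted p under 0.05, against 3.18%. The ends of this range were Ndufs5-ps (-0.12 ± 0.02, adjusted p = 0.974) and Ndufs8 (0.09 ± 0.25). Uqcrh (-0.11 ± 0.09) and Ndufa12 (-0.10 ± 0.11) were on the low side, and Cox7c (0.05 ± 0.02) and Ndufc2 (0.05 ± 0.01) on the high side, all with the same adjusted p of 0.974. The sign of Cox7c turned without the 3 arrays of dataset 3 with most values missing and without the 3 arrays of widest spread, and that of Ndufc2 with floor values kept.

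Several subunits come as paralogues that tissues use in different proportions. Cox6b1, the form used in most tissues, passed the test among positions, and Cox6b2, known in the mouse as a testis form, did not (adjusted p = 0.859). The highest mean of Cox6b2, 1.44 ± 1.98 at C5, rested on 3.69 in dataset 1. Of the complex IV subunit 7a family, Cox7a2 had its highest mean at C8 (0.57 ± 0.52, adjusted p = 0.503). Cox7a2l, a relative that joins complexes III and IV into supercomplexes, had 0.35 and 1.15 at B5, against -1.24 and -1.27 at A10 (adjusted p = 0.281). Cox4i1, Cox6a1 and Cox8a were the measured members of their families. Atp5g1 and Atp5g3 encode the same mature ring subunit of complex V. The position means of Atp5g1 ran from -0.31 ± 0.48 at A10 (n = 2) to 0.36 ± 0.07 at C7 (n = 2), and its single arrays from -0.68 to 0.64. The highest mean of Atp5g3, 0.84 ± 1.66 at B7, rested on 2.76 in dataset 1. Neither gene passed the test among positions (adjusted p = 0.805 for Atp5g1 and 0.959 for Atp5g3).

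Some extreme values belonged to single arrays. G9 of dataset 3 held 4.97 for Cox7b and -5.07 for Cox7c, both small complex IV subunits, while the other 2 datasets gave -0.09 and 0.68 for Cox7b and -0.42 and 0.02 for Cox7c at G9. The same array held -2.97 for Ndufs8, a quinone module subunit. B6 of dataset 1 held 2.72 for Ndufb11 and 4.69 for Sdhb, and F4 of dataset 1 held 3.20 for Uqcr10.

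Agreement between array elements of a gene bounds what the maps can show. For the 24 genes averaged from several elements, the lowest correlation between elements over the arrays had a median of 0.22 and was under 0.2 for 9 of them. Uqcrc2 (0.88) and Atp5b (0.71 to 0.78) had elements that followed each other. Of the 3 Atp5b elements tested alone among positions 1 passed, with adjusted p from 0.00777 to 0.134. The 2 elements of Ndufa13 correlated at 0.36, and 1 passed alone (adjusted p = 0.000307 and 0.354). Cox4i1 ranged from 0.39 to 0.81, and its 3 elements tested alone had adjusted p from 0.0288 to 0.145. Ndufb5 (0.16), Ndufs4 (-0.05) and Atp5o (-0.07) had elements that hardly followed each other, and neither element of Ndufb5 passed alone.

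Genes that work beside the respiratory chain were counted from lists of the pathway, and each count is to be read against the 4.92% of all genes that differed among positions. Of 16 measured assembly factors other than the Ndufaf genes, 1 passed the test among positions. It was Cox16, a complex IV assembly factor, highest at C7 with 0.58 ± 0.25 (n = 2, adjusted p = 0.0129), a position where complex IV lay below complex I. Of 17 citric acid cycle genes none passed, and Idh3g came closest (adjusted p = 0.130). Of 10 carriers and cytochrome c, 1 passed (Vdac3, an outer membrane channel, adjusted p = 0.0388), and of 13 glycolytic genes 2 passed (Ldhb, adjusted p = 5.06e-05, and Aldoc, adjusted p = 0.00138). Ldhb was highest at C4 (1.02 ± 0.15) and Aldoc, an astrocyte enzyme, at C8 (0.75 ± 0.41; SD, n = 3 each), which were also the high positions of the 68 genes. Of 16 import and structure genes 3 passed: Tomm70a, Chchd3 and Tomm20, with adjusted p of 1.98e-05, 0.00340 and 0.00569. Of 10 regulators of mitochondrial genes, among them Nrf1 (adjusted p = 0.953) and Gabpa (adjusted p = 0.779), none passed, and Tfb2m came closest (adjusted p = 0.251).

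Set beside the mean of the 68 genes over positions, the mean of the citric acid cycle genes correlated at r = 0.79, of carriers and cytochrome c at 0.76, of import and structure genes at 0.74 and of glycolytic genes at 0.59. The mean of the 16 listed assembly factors, which leave out the 5 Ndufaf genes, did not follow it (r = -0.0037), nor did that of the regulators (r = -0.14). The mean of the 5 Ndufaf genes correlated with those of complexes I to V at 0.47, 0.35, 0.43, 0.51 and 0.49. Within single datasets these values lay between 0.11 and 0.38. Among themselves the Ndufaf genes were the least alike, with a median r of 0.08 among their 10 pairs, and Ndufaf6 ran against the other genes (r = -0.22). Among markers of cell types, r was 0.55 for astrocytes (4 genes), 0.49 for oligodendrocytes (4), 0.45 for neurons (3), 0.58 for microglia (3), 0.37 for the fast-spiking interneuron gene Cplx1, 0.04 for blood (3), -0.05 for endothelium (3), -0.13 for meninges (7), -0.19 for ependyma (3) and -0.27 for choroid plexus (2). Single genes of a list differed: of the neuronal genes Uchl1 had 0.61, Nefl 0.01 and Tubb3 -0.04. Microglial genes ran from 0.06 (C1qb) to 0.61 (C1qc), astrocyte genes from 0.12 (Gja1) to 0.71 (Aldoc) and oligodendrocyte genes from 0.02 (Mbp) to 0.59 (Cryab). For region markers r was 0.11 for striatum (4), 0.14 for thalamus (3) and -0.30 for cortex (5). All are correlations over the same 68 positions of means that share arrays, and are given as descriptions.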

How the data were processed

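RNA of brain voxels was set against whole brain RNA on two-colour arrays. The authors deposited log2 ratios, which the values show to be centred on each row's median (99.9% of rows within 0.001 of 0) and to have a floor at -6.64; per the labels, the voxel carried Cy3 in datasets 1 and 3 and Cy5 in dataset 2, and the sign of the deposited ratio is not given. How images were read and ratios normalized is not given in the sources used, and background or intensity values were not analysed here.

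Values at the floor (0.483% of the table) were set to missing. Arrays were centred on the median of the rows measured on every array. Table rows with values on 80% or more of each dataset's arrays were kept, same-symbol rows averaged, and symbols taken from the platform annotation. Positions were tested with limma 3.58.1 (R 4.3.3): a moderated F test of position with the dataset as a block, and tests of the 3 within-dataset zone differences, both with Benjamini-Hochberg adjustment over 15608 genes at 0.05. Datasets are the replicates. The labels make the datasets separate harvests, so the numbers pair the samples. Same-dataset arrays deviated together from the position means (median correlation 0.237 within and -0.124 between datasets). Deviations at a position cancel over its datasets, so the negative value between datasets is partly built in. The number of arrays, not a read depth, limits precision. Scripts were tested on simulated data.

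The genes, lists and tests were chosen with earlier results of these data known. Named genes were those called among positions, the 2 of smallest p per complex, paralogue pairs, the 3 of smallest p in each direction per zone, called or leading genes of each list, and the 5 genes with the closest maps. Genes with an extreme single value, complex II genes between columns and members named for the agreement of their rows were chosen after their values were seen. Alternatives covered centring, quantile normalization, floor values, value limits, filters, single rows, the block, each dataset left out, array weights and doubtful arrays (6 of row D in dataset 2, whose order is in doubt); leaving out C8 of dataset 2, G8, G3 and G6 of dataset 3 (most values missing) and the 3 arrays of widest spread was chosen after seeing the data.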

Additional observations from a re-analysis of the deposited data

How the results depend on the processing

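The count of 9 oxidative phosphorylation genes called among positions moved with the processing: it was 0 with no replicate block (366 of all genes), between 0 and 3 with each dataset left out in turn, and 30 with array weights, where 2532 of all genes passed. Under the other settings that were run it lay between 6 and 13. Uqcrh, Cox4i1, Ndufv2 and Atp5b passed under 12 of 13 settings that kept all datasets, while Ndufs1 passed under 7 and Atp5j2 under 8. At the perimeter, 4 of the 68 genes passed with elements measured on every array and none otherwise, and the number of genes above 0 there, 5, lay between 2 and 11. The zone differences of all genes changed by more than 1.5 times in count: between 0 and 154 passed for rows A and B, between 0 and 50 for rows C to E, between 0 and 201 for columns 5 to 7 and between 0 and 128 for the perimeter. With each dataset left out in turn, the correlation of complexes I and V lay between 0.887 and 0.928 and that of I and IV between 0.756 and 0.797. The sign of single genes was followed only for the 3 of smallest p in each direction per zone, not for all 68. Among these it turned in 4 cases, all with adjusted p above 0.9. Cox7c between the sides was -0.015 without G8, G3 and G6 of dataset 3 and -0.0049 without the 3 arrays of widest spread. Ndufc2 between the sides was -0.025 with floor values kept. Cyc1 at the perimeter was -0.022 without replicate 2 and up to 0.17 without replicate 1. The causes were not tested. None of the 68 genes was called in a zone comparison with or without the block, so there was no call to lose. Over all genes the perimeter calls went from 17 to 0 without the block. The 2 or 3 arrays at each position limit what single positions can show.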
